A study of Rattus norvegicus with 84 samples.

Results

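Known miRNAs of plasma-derived EVs were compared between rats that received human neural stem cells (hNSCs) and control rats at 31 days poststroke. The members were taken from the sample labels, as all miRNA libraries of plasma-derived EVs at 31 days, 3 of the hNSCs group and 3 of the control group, which makes 6 of the 84 libraries of the series. The middle cerebral artery was blocked for 90 min and reopened, and injections of hNSCs or saline followed 3 days later. EVs of the brain and plasma were collected at 4, 10 and 31 days poststroke and from healthy rats, in 7 groups of 3 rats. All groups were wild-type male Sprague-Dawley rats aged 8 to 12 weeks, so that the hNSCs group at 31 days had the occlusion and hNSCs, the control group at 31 days had the same occlusion and saline, and the healthy group had neither. The hNSCs are human cells in a rat host, and each library came from 1 rat. The comparison addresses which miRNAs of circulating EVs differed with hNSCs at the last time point.

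EVs are membrane particles released by most cells, and they carry mature miRNAs that are protected from nucleases in the blood. A miRNA guides the silencing complex to mRNAs that pair with its seed, the short stretch near its 5′ end. Plasma EVs come mostly from blood cells, platelets, the endothelium and the liver, and each of these sources is known by its own abundant miRNAs. Fewer EVs from a cell type and less miRNA per EV cannot be told apart in such libraries, just as fewer cells and less RNA per cell cannot.

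The control libraries held 1859924, 1127032 and 1157614 UMI counts, which are counts of distinct molecules, in replicates 1, 2 and 3, and the hNSCs libraries held 792092, 694673 and 1474637. Known miRNAs took 99.0, 98.2 and 96.6% of these in control and 96.9, 98.0 and 97.9% in hNSCs replicates 1, 2 and 3. The depth of the groups overlapped (exact permutation test, two-sided p = 0.3, where 3 libraries against 3 allow no p below 0.1). Known miRNAs with at least 1 count numbered 476, 427 and 406 in control and 382, 375 and 407 in hNSCs libraries. Levels are given as CPM, the counts of a miRNA as a rate over all known miRNA counts of the library, scaled by TMM factors, and values are listed in the order of replicates 1, 2 and 3. The TMM factor of hNSCs replicate 3 was 0.723, against 1.03 and 1.15 in the other hNSCs libraries.

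Control replicate 3 stood apart from its own group. Across the 309 miRNAs tested, which are not independent replicates, its log2 CPM correlated with those of hNSCs replicates 1, 2 and 3 at r = 0.974, 0.961 and 0.956, and with those of control replicates 1 and 2 at r = 0.909 and 0.910. Control replicates 1 and 2 correlated with each other at r = 0.982. Control replicate 3 was closer by this measure to each hNSCs library than to either other control library. The results below are given with it and, where they rest on it, without it. hNSCs replicate 3 stood apart by its let-7 miRNAs, which took 47.3% of its counts against 22.4% and 21.7% in hNSCs replicates 1 and 2. Whether control replicate 3 is what its label says could not be checked from the files, and every control mean and fold change below includes it unless stated. In mRNAs of the same rats, its shares of hemoglobin (17.4%) and other red cell genes (0.401%) were below those of all hNSCs libraries. Its shares of liver, platelet and neutrophil genes were within the hNSCs range, and that of T cell genes was above it. With 1 of the 6 libraries left out in turn, the log2 fold change of 19 of 69 named miRNAs turned sign and that of 31 more moved by over 1.5 times. For these the lowest and highest of the 6 values are given as the left-out range, or the values without the named libraries are given. All libraries were kept, and no pair of the 6 agreed within sampling noise.

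With hNSCs, plasma-derived EVs tended to hold less of the miR-125, miR-99 and miR-100 families, miR-365-3p, miR-10 and the Dlk1-Dio3 cluster, and more of miR-488-3p, miR-483-3p, miR-140-5p and, with the highest values in hNSCs replicate 3, miR-223-3p, miR-223-5p and miR-142-3p, which are listed for leukocytes or platelets. These differences, with log2 fold changes from -2.95 for miR-127-3p to 2.51 for miR-483-3p, came with a wide spread among the 3 control libraries, and edgeR called none of them with all 6 libraries. A miRNA was called when its change exceeded 1.5-fold with an adjusted p below 0.05, and by this edgeR called 0 of 309 miRNAs higher (0%) and 0 lower (0%) in hNSCs, where the lowest adjusted p was 0.369. At an unadjusted p under 0.05 and the same fold, edgeR had 13 miRNAs higher (4.21%) and 22 lower (7.12%). The levels of the groups did not overlap for 14 miRNAs that were higher (4.53%) and 7 that were lower (2.27%) in hNSCs. DESeq2 called 0 higher and 1 lower, miR-365-3p, with 12 higher and 29 lower at an unadjusted p under 0.05, and limma on log2(TPM + 1) called 0 in either direction, with 12 higher and 10 lower at an unadjusted p under 0.05. Over all 309 miRNAs the median log2 fold change was 0.014, with 156 positive and 153 negative values, and these counts, with the 13 higher and 22 lower, are the background for each list below. With predicted miRNAs kept in the scaling this median was -0.56, with 91 of 309 positive, so that log2 fold changes lay lower in general. For each list the lowest and highest median over alternatives that kept all libraries and all its tested members is given as well. The members of a list are not independent observations, and the lists were chosen with earlier results of these data known. Of the 22 lower miRNAs, control replicate 3 was the lowest control library in 21 and lay within the range of the hNSCs libraries in 15. Over all 309 it was the lowest control library in 154 and within the hNSCs range in 176. Without control replicate 3, edgeR called 2 miRNAs higher and 11 lower of 325 tested, and without any other single library it called 0. These, named after their values were seen, were miR-150-3p (log2 fold change 2.88) and miR-17-1-3p (1.96) on the higher side and miR-365-3p, miR-323-3p, miR-125b-5p, miR-99a-5p, miR-100-5p, miR-99b-5p, miR-145-5p, miR-200a-5p, miR-133a-3p, miR-10b-5p and miR-10a-5p on the lower side. miR-150-3p had 17, 10 and 113 counts in control and 70, 46 and 68 in hNSCs libraries, the most in the library left out. miR-17-1-3p had 63, 19 and 113 counts in control and 79, 56 and 145 in hNSCs libraries. There control replicate 3 was within the hNSCs range. Of the miRNAs called, miR-323-3p and miR-200a-5p were not among the 309 and could pass the count filter only with a library left out, when it asks for enough counts in 2 libraries in place of 3. They had 10, 13 and 1 and 31, 35 and 0 counts in control and 0, 0 and 0 and 0, 3 and 2 counts in hNSCs libraries. Their calls support no difference, since they entered by this change of the filter with control replicates 1 and 2 high. In a fit chosen after seeing the data, without control replicate 3 but with the same 309 miRNAs, edgeR called 0 higher and 1 lower, miR-365-3p (adjusted p = 0.0458), with 45 higher and 37 lower at an unadjusted p under 0.05. Of the other 12 calls, miR-323-3p and miR-200a-5p were not tested in this fit. Those tested had adjusted p from 0.0540 to 0.0624 by edgeR. Their log2 fold changes stayed about as large, for example -2.44 and -2.39 for miR-125b-5p and 2.88 and 2.93 for miR-150-3p. The calls, but not the size of these fold changes, thus depended on the miRNAs tested. The calls and the size of the fold changes depended on leaving out control replicate 3 as well. Among the higher miRNAs, hNSCs replicate 3 was the highest hNSCs library in 10 of 13, against 108 of all 309.

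Among the miRNAs that tended lower with hNSCs, the miR-125, miR-99 and miR-100 families held 4 of the 5 with the lowest p. These miRNAs are encoded in clusters that each join a miR-99 or miR-100 gene with a let-7 and a miR-125 gene, miR-125 being the mammalian counterpart of lin-4 and miR-99 and miR-100 being known to target mTOR. All 5 members tested had negative fold changes, with a median log2 of -1.53 against 0.014 over all tested, and 4 of 5 had an unadjusted p under 0.05, against 22 of 309. The alternatives gave medians from -2.34 with predicted miRNAs kept to -1.41 with a replicate block. miR-125b-5p was at 23807, 22575 and 5466 CPM in control and 5997, 3533 and 3749 CPM in hNSCs libraries. Control replicates 1 and 2 were high, while control replicate 3 lay below the highest hNSCs library, so that the groups overlapped (log2 fold change -1.97 ± 0.62 SE, unadjusted p = 0.00478, adjusted p = 0.369 by edgeR). miR-99b-5p had 2087, 3463 and 624 CPM in control and 871, 526 and 720.2 CPM in hNSCs libraries, with a log2 fold change of -1.54 ± 0.57 SE, which was -0.86 without control replicate 2 (edgeR, unadjusted p = 0.0143, adjusted p = 0.387). For miR-100-5p the levels were 1324, 1738 and 484 CPM in control and 581, 350.5 and 305 CPM in hNSCs libraries. The same split of control replicates 1 and 2 from the other 4 libraries was seen in both miRNAs. The log2 fold change of miR-100-5p was -1.52 ± 0.53 SE (edgeR, unadjusted p = 0.00953, adjusted p = 0.387). miR-99a-5p differs from miR-100-5p by 1 substitution and had nearly the same counts in every library, so that the pair is not 2 separate observations (log2 fold change -1.53 ± 0.53 SE). The most abundant member, miR-125a-5p, was at 21075, 24946 and 8708 CPM in control and 10444, 9844 and 9488 CPM in hNSCs libraries (log2 fold change -0.88 ± 0.45 SE, adjusted p = 0.468 by edgeR). With 1 library left out its log2 fold change ranged from -1.26 without control replicate 3 to -0.50 without control replicate 2. It had the smallest difference of the 5, and again only control replicates 1 and 2 exceeded all hNSCs libraries. Together the 5 miRNAs took 5.13, 5.18 and 1.52% of the known miRNA counts in control, 1.90, 1.68 and 1.05% in hNSCs and 2.68, 2.73 and 1.27% in healthy libraries. Without control replicate 3 the median of the 5 was -1.95, and edgeR called miR-125b-5p, miR-99a-5p, miR-99b-5p and miR-100-5p lower (adjusted p = 0.0368 for miR-125b-5p and 0.0455 for the other 3). With the same 309 miRNAs tested these adjusted p were 0.0559 and 0.0624 and none of the 4 was called. Their log2 fold changes stayed about as large in that fit, at -2.39, -1.91, -1.98 and -1.89 in the order named.

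The mature sequences of the family members show which of them share a seed and can therefore pair with the same mRNAs. Capitals mark the seed, bases 2 to 8, and sequences are those of RefSeq for the GRCr8 assembly, which matched 280 of the 309 miRNAs tested by name and were identical to the deposited sequence in all 280. miR-100-5p and miR-99b-5p share the seed ACCCGUA, and miR-125a-5p, miR-125b-5p and miR-351-5p share CCCUGAG.
miR-100-5p: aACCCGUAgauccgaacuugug
miR-99b-5p: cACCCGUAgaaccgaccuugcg
miR-125a-5p: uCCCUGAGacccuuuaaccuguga
miR-125b-5p: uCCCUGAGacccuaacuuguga
miR-351-5p: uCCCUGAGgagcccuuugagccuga
Between miR-100-5p and miR-99a-5p the difference is A16U, with positions counted from 1 at the 5′ end of the first-named miRNA, outside the seed.

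The lowest p of all belonged to miR-365-3p, which was at 312, 287 and 79.5 CPM in control and 88.6, 47.3 and 52.7 CPM in hNSCs libraries. Control replicates 1 and 2 were the 2 highest libraries, and control replicate 3 lay between hNSCs replicates 1 and 3, so that the groups overlapped by 1 library. With scaling factors from counts summed by seed, control replicate 3 was above hNSCs replicate 1 (83.7 against 82.3 CPM), so that this overlap depended on the scaling. The log2 fold change of miR-365-3p was -1.85 ± 0.52 SE (edgeR, unadjusted p = 0.00198, adjusted p = 0.369). DESeq2 called it, with an adjusted p of 0.0349, and over all alternatives tried the adjusted p ranged from 0.0349 without control replicate 3 to 0.987 with predicted miRNAs kept. Its direction was negative under each of these. In healthy libraries it had 112, 178 and 65.9 CPM.

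miR-10a-5p and miR-10b-5p, encoded within the Hox gene clusters, also tended lower. miR-10b-5p was at 8933, 10339.8 and 3609.6 CPM in control and 4235, 3959 and 2240.0 CPM in hNSCs libraries, with the highest 2 values in control replicates 1 and 2 and control replicate 3 within the hNSCs range. Its log2 fold change was -1.13 ± 0.44 SE (edgeR, unadjusted p = 0.0183, adjusted p = 0.387). The counts of miR-10a-5p were within 5% of those of miR-10b-5p in all 6 libraries (log2 fold change -1.13 ± 0.44 SE), so that both carry 1 observation. The annotated miR-10b-5p starts 2 bases later than miR-10a-5p, and over the 21 bases that align they differ by U12A, counted on miR-10a-5p, although the shift gives them different seeds.
miR-10a-5p: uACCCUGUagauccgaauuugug
miR-10b-5p: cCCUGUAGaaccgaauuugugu
miR-365-3p: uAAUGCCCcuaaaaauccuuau
In all, 58 pairs of tested miRNAs differed by at most 2 substitutions over at least 19 aligned bases, and 13 of these pairs had counts within 5% of each other in the 6 libraries, among them miR-1-3p with miR-1b, miR-27a-3p with miR-27b-3p and miR-29a-3p with miR-29c-3p. How the counting divided reads between such miRNAs is not given in the sources used here, and their separate values are uncertain.

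miR-145-5p, a miRNA of smooth muscle, was at 1019, 782 and 199 CPM in control and 211, 272 and 165 CPM in hNSCs libraries. Control replicate 3 lay within the hNSCs range, and the log2 fold change was -1.63 ± 0.61 SE (edgeR, unadjusted p = 0.0147, adjusted p = 0.387). miR-143-3p, which is encoded in the same cluster and was the most abundant member of the smooth muscle and fibroblast list, was at 22206, 16168 and 10153 CPM in control and 12508, 29532 and 14353 CPM in hNSCs libraries (log2 fold change 0.22 ± 0.47 SE, left-out range -0.30 to 0.53, -0.42 with predicted miRNAs kept in the scaling). Its highest value was in hNSCs replicate 2, while miR-145-5p was highest in control replicate 1. miR-190a-5p had 265, 271 and 88.8 CPM in control and 98.7, 72.9 and 67.0 CPM in hNSCs libraries, with control replicates 1 and 2 above all others (log2 fold change -1.39 ± 0.56 SE, edgeR adjusted p = 0.387). Of the smooth muscle and fibroblast list, 6 of 7 members tested were negative, with a median log2 of -0.31, and 1 had an unadjusted p under 0.05, against 153 of 309 negative and 22 of 309 lower over all tested. Over the alternatives this median ranged from -0.91 with predicted miRNAs kept to -0.15 with upper quartile scaling. This median depended on single libraries, ranging from -0.93 without hNSCs replicate 2 to -0.023 without hNSCs replicate 3, and was -0.054 without hNSCs replicate 1. Other examples were miR-199a-5p (-0.91 ± 0.61 SE, left-out range -1.31 to -0.41) and miR-199a-3p (-0.081 ± 0.45 SE, left-out range -0.51 to 0.32, 0.098 with upper quartile scaling).

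miR-204-5p, which is abundant in the choroid plexus and retinal pigment epithelium, was lower in hNSCs without overlap of the groups. It was among 7 such miRNAs of the 309 tested (2.27%), and 3 libraries against 3 allow no exact p below 0.1. It was at 105, 61.8 and 33.3 CPM in control and 16.5, 26.9 and 8.62 CPM in hNSCs libraries, so that even the lowest control library, replicate 3, exceeded the highest hNSCs library. The log2 fold change was -1.96 ± 0.79 SE (edgeR, unadjusted p = 0.0229, adjusted p = 0.387), and it stayed negative with each of the 6 libraries left out in turn. The near-identical miR-211-5p had its own counts, lower than those of miR-204-5p in each of the 6 libraries. Healthy libraries held 72.4, 42.9 and 8.55 CPM of miR-204-5p, high in replicate 1 and low in replicate 3.

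miRNAs of the imprinted Dlk1-Dio3 cluster, which is expressed from the maternal allele and is active in the brain, placenta and muscle, tended lower as a list. Of 41 listed members 15 were tested, and 14 of these had negative fold changes, with a median log2 of -1.54 and 5 at an unadjusted p under 0.05, none of them passing adjustment. The median ranged from -2.45 with predicted miRNAs kept to -1.02 with limma on log2(TPM + 0.1) over the alternatives. Over all tested miRNAs the corresponding numbers were 153 of 309 negative and 22 lower at an unadjusted p. The members come from the same cluster, so that 14 negative values are not 14 independent observations. Members with at least 1 count numbered 33, 31 and 21 in control and 20, 21 and 21 in hNSCs libraries. Of the 41, 6 had no count in any of the 6 libraries. Their summed counts were 2241, 1059 and 94 in control and 180, 196 and 186 in hNSCs libraries, which is 0.122, 0.0956 and 0.00841% and 0.0235, 0.0288 and 0.0129% of known miRNA counts. The share was high in control replicates 1 and 2 and lowest in control replicate 3, so that the difference rests on 2 libraries. miR-127-3p was at 187, 195 and 6.47 CPM in control and 26.6, 10.2 and 13.4 CPM in hNSCs libraries (log2 fold change -2.95 ± 1.17 SE, edgeR unadjusted p = 0.0204, adjusted p = 0.387). The most abundant member, miR-434-3p, had 233, 159.6 and 12.9 CPM in control and 35.4, 42.2 and 22.0 CPM in hNSCs libraries (log2 fold change -2.03 ± 0.87 SE, edgeR adjusted p = 0.387). In miR-411-5p the values were 136, 76.0 and 2.77 CPM in control and 15.2, 8.95 and 8.62 CPM in hNSCs libraries (log2 fold change -2.72 ± 1.11 SE, edgeR adjusted p = 0.387). In each of these 3 miRNAs control replicate 3 was the lowest of the 6 libraries. Without control replicate 3 the median of the list was -2.11, and all 15 members were negative. In healthy libraries the list took 0.0297, 0.0309 and 0.00847% of known miRNA counts.

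**Figure D1:**
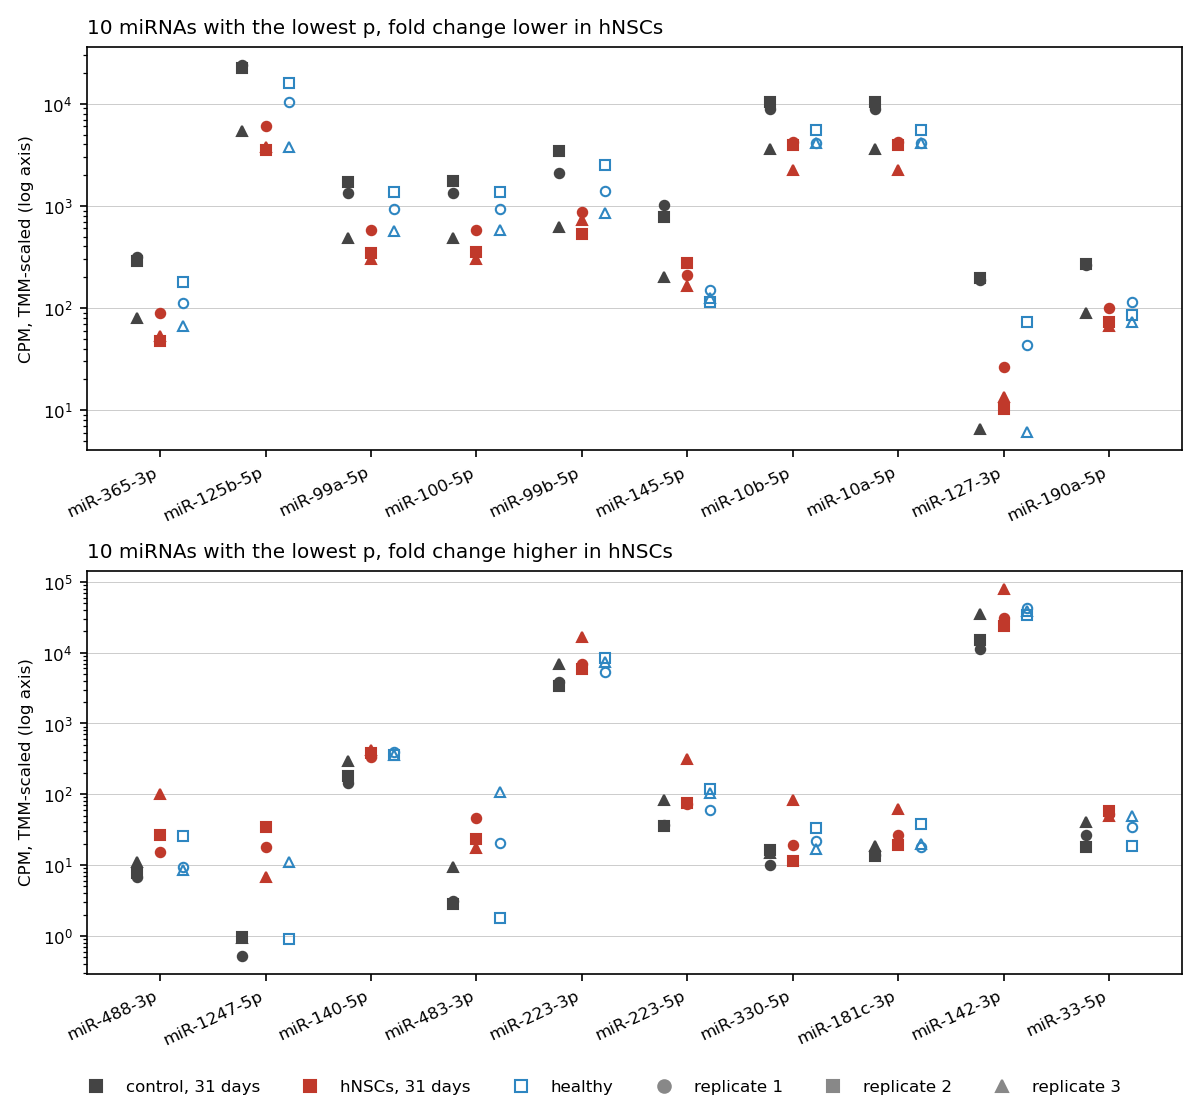
Level in TMM-scaled CPM on a log axis for the 10 miRNAs of lowest p in each direction, with 1 point per library, colors for control and hNSCs at 31 days and for healthy rats, and marker shapes for the replicates. In the upper panel control replicates 1 and 2 sit above all hNSCs libraries, while control replicate 3 falls among or near them, and in the lower panel the hNSCs points are mostly above the control points. A value of 0, which miR-1247-5p had in healthy replicate 1, is not drawn.

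Among the miRNAs that tended higher with hNSCs, the 2 of lowest p, miR-488-3p and miR-1247-5p, were scarce, while miR-223-3p and miR-142-3p, described further below, were abundant. miR-488-3p, listed among brain miRNAs, was at 6.83, 7.60 and 11.1 CPM in control and 15.2, 26.9 and 102 CPM in hNSCs libraries. The groups did not overlap, and the level in hNSCs replicate 3 exceeded those of replicates 1 and 2 (log2 fold change 2.50 ± 0.75 SE, unadjusted p = 0.00342, adjusted p = 0.369 by edgeR). Absence of overlap, here and below, was seen in 14 higher miRNAs of all 309 tested (4.53%). With 3 libraries against 3 it allows no exact p below 0.1. Without hNSCs replicate 3 the log2 fold change of miR-488-3p was 1.31. miR-1247-5p had 1, 1 and 1 counts in control and 14, 27 and 7 counts in hNSCs libraries, all hNSCs values being above the control values. Relative to all known counts the ratio of the groups was 22.5, with a 95% counting interval of 7.25 to 113 (edgeR, unadjusted p = 0.00385, adjusted p = 0.369), an interval that covers counting error only. With scaling from counts summed by seed, miR-1247-5p was at 16.5, 37.3 and 7.20 CPM in these hNSCs libraries. Libraries without hNSCs varied as widely, at 0, 0.802 and 11.3 CPM in healthy rats. Control libraries had 3.32, 28.7 and 10.7 CPM at 4 days and 3.04, 19.4 and 1.59 CPM at 10 days. miR-483-3p, which is encoded within the imprinted Igf2 gene, had 3.15, 2.85 and 9.25 CPM in control and 46.8, 23.0 and 17.2 CPM in hNSCs libraries (log2 fold change 2.51 ± 1.01 SE, edgeR adjusted p = 0.387). The groups of miR-483-3p did not overlap, but healthy libraries spanned 20.7, 1.79 and 109 CPM, wider than either group. miR-140-5p, known from cartilage, was at 142, 179.6 and 293 CPM in control and 340.5, 386 and 417 CPM in hNSCs libraries. Its log2 fold change of 0.90 ± 0.34 SE (edgeR, unadjusted p = 0.0160, adjusted p = 0.387) was small against those of miR-488-3p and miR-483-3p, and its groups did not overlap. miR-33-5p, encoded within Srebf2 and known to restrain cholesterol export, had 26.3, 18.1 and 40.7 CPM in control and 51.9, 58.8 and 48.8 CPM in hNSCs libraries, without overlap (log2 fold change 0.91 ± 0.40 SE, edgeR adjusted p = 0.387). miR-181c-3p was at 13.7, 13.3 and 18.5 CPM in control and 26.6, 19.2 and 61.3 CPM in hNSCs libraries, likewise without overlap (log2 fold change 1.24 ± 0.53 SE, 0.58 without hNSCs replicate 3). miR-330-5p had 9.98, 16.2 and 14.8 CPM in control and 19, 11.5 and 82.4 CPM in hNSCs libraries (log2 fold change 1.48 ± 0.62 SE), with hNSCs replicate 2 within the control range and a log2 fold change of 0.14 without hNSCs replicate 3. miR-34a-5p, a target of p53, was at 131, 66.5 and 87.8 CPM in control and 146, 123 and 202 CPM in hNSCs libraries and overlapped in hNSCs replicate 2 (log2 fold change 0.72 ± 0.32 SE, edgeR unadjusted p = 0.0396, -0.062 with predicted miRNAs kept).

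The sequences of the higher miRNAs are shown because no seed is shared among them, in contrast to the lower miRNAs above, so that each stands for a seed family of its own.
miR-488-3p: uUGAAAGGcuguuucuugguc
miR-1247-5p: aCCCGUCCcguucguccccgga
miR-483-3p: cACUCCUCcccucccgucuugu
miR-140-5p: cAGUGGUUuuacccuaugguag
miR-33-5p: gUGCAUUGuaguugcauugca
miR-223-3p: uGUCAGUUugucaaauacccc
miR-142-3p: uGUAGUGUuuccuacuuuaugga

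miRNAs of leukocytes had positive fold changes as a list, by an amount that depended on single libraries. Of 9 members tested, 9 had positive fold changes, with a median log2 of 0.46, and 2 had an unadjusted p under 0.05, while 156 of 309 were positive and 13 higher at an unadjusted p over all tested. The median was 0.16 without control replicate 1 and 0.11 without control replicate 2, with 7 of 9 positive in each, 0.91 without control replicate 3 and 0.26 without hNSCs replicate 1. Alternatives gave 0.073 with predicted miRNAs kept to 0.55 with upper quartile scaling, and 5 of 9 were positive when predicted miRNAs were kept. miR-223-3p, a miRNA of myeloid cells and platelets, was at 3828, 3351 and 6868 CPM in control and 6952, 5901 and 16438 CPM in hNSCs libraries. hNSCs replicate 3 was far above the others and control replicate 3 overlapped the hNSCs range (log2 fold change 1.06 ± 0.44 SE, 0.43 without hNSCs replicate 3, edgeR unadjusted p = 0.0250, adjusted p = 0.387). The other arm, miR-223-5p, which is on the platelet list only, had 36.2, 35.2 and 84.1 CPM in control and 72.1, 74.2 and 313 CPM in hNSCs libraries (log2 fold change 1.57 ± 0.65 SE, 0.48 without hNSCs replicate 3, edgeR adjusted p = 0.387). miR-142-3p, a miRNA of blood cells and the most abundant of the list, was at 11297, 15114 and 35181 CPM in control and 31394, 23949.8 and 79157 CPM in hNSCs libraries (log2 fold change 1.13 ± 0.50 SE, 0.38 without hNSCs replicate 3 and 1.74 without control replicate 3, edgeR adjusted p = 0.387). The lymphocyte miRNA miR-150-5p had 5700.0, 6632 and 22936 CPM in control and 16084, 8953 and 10724 CPM in hNSCs libraries (log2 fold change 0.020 ± 0.50 SE, left-out range -0.37 to 0.91, reversed to -0.15 with erythroid miRNAs left out or predicted miRNAs kept, to -0.13 with a minimum mean TPM of 5 and to -0.091 in DESeq2), with its highest value in control replicate 3. In libraries the leukocyte list took 3.42, 3.27 and 9.27% of known miRNA counts in control, 8.60, 6.75 and 9.10% in hNSCs and 10.9, 5.99 and 9.84% in healthy rats. Control replicate 3 was the highest of the 6 and control replicates 1 and 2 the lowest.

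The lists of erythroid and platelet miRNAs had positive medians, and those of liver miRNAs had a negative one. Of 9 erythroid miRNAs 8 were positive, with a median log2 of 0.40, and of 8 platelet and megakaryocyte miRNAs 7 were positive, with a median of 0.48 and 2 at an unadjusted p under 0.05, against 13 of 309. These 2 were the arms miR-223-3p and miR-223-5p, which are not separate observations, and miR-223-3p is on the leukocyte list too. Their log2 fold changes were 0.43 and 0.48 without hNSCs replicate 3. The erythroid list took 9.46, 8.50 and 33.7% of known miRNA counts in control, 26.0, 25 and 15.9% in hNSCs and 22.6, 11.1 and 28.8% in healthy libraries, where 95% Wilson intervals were at most 0.118 percentage points to either side for each of the 18 lists. Control replicate 3 had the highest share of the 6 and control replicates 1 and 2 the lowest. The list's median was 1.68 without control replicate 3, 0.027 without control replicate 1 and 0.051 without control replicate 2, with 6 of 9 positive in the latter 2. It was 0.16 without hNSCs replicate 1. The alternatives gave erythroid medians from 0.25 with a minimum mean TPM of 5 to 0.94 with a replicate block. The platelet and megakaryocyte median ranged from 0.31 without control replicate 2 to 1.01 without control replicate 3, and over the alternatives from 0.12 with predicted miRNAs kept to 0.65 with a replicate block. miR-16-5p, the most abundant of the erythroid list and of all known miRNAs over the 6 libraries, was at 84207, 80601 and 321895 CPM in control and 231942, 204278 and 201220 CPM in hNSCs libraries (log2 fold change 0.39 ± 0.53 SE, 95% confidence interval -0.71 to 1.49, from 0.027 without control replicate 1 to 1.32 without control replicate 3, edgeR adjusted p = 0.779). miR-486 was scarce, at 1.05, 5.70 and 20.3 CPM in control and 17.7, 16.6 and 13.4 CPM in hNSCs libraries (log2 fold change 0.86 ± 0.87 SE, 0.23 without control replicate 1 to 2.28 without control replicate 3). The platelet and megakaryocyte list took 6.62, 4.34 and 10.5% of known miRNA counts in control and 11.5, 11.1 and 7.43% in hNSCs libraries. miR-126a-3p, also a marker of the endothelium, was at 18557, 11026 and 47413 CPM in control and 45859, 41250.4 and 25174 CPM in hNSCs libraries (log2 fold change 0.54 ± 0.68 SE, 0.17 without control replicate 2 to 1.29 without control replicate 3), highest in control replicate 3. miR-21-5p was at 15683, 10790.1 and 26846 CPM in control and 31880.0, 25191 and 24619.6 CPM in hNSCs libraries, highest in hNSCs replicate 1 (log2 fold change 0.62 ± 0.42 SE, 0.37 without control replicate 2 to 0.99 without control replicate 3). In both miRNAs control replicates 1 and 2 were the lowest and the groups overlapped. Of 7 liver miRNAs 5 were negative, with a median log2 of -0.16, and none had an unadjusted p under 0.05. The liver median ranged from -0.29 without hNSCs replicate 1 to -0.056 without control replicate 1, and over the alternatives from -0.84 with predicted miRNAs kept to -0.046 with upper quartile scaling, where 0 of 7 members were positive with predicted miRNAs kept. The liver list took 16.3, 18.5 and 6.10% of known miRNA counts in control, 7.52, 9.84 and 5.36% in hNSCs and 9.35, 11.5 and 2.65% in healthy libraries. miR-122-5p, the most abundant miRNA of hepatocytes, was at 134806, 175586 and 47535 CPM in control and 54726, 65291 and 51374 CPM in hNSCs libraries (log2 fold change -1.06 ± 0.75 SE, 95% confidence interval -2.63 to 0.51, -0.58 without control replicate 2, edgeR adjusted p = 0.590). Control replicate 3 lay below all of the hNSCs libraries. Other examples of the liver list were miR-148a-3p (0.28 ± 0.54 SE, left-out range -0.24 to 0.69, -0.44 with predicted miRNAs kept) and miR-194-5p (-0.54 ± 0.65 SE, left-out range -0.77 to -0.15). The erythroid list also held miR-92a-3p (log2 fold change 0.38 ± 0.46 SE, left-out range -0.16 to 1.02).

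mRNAs of the plasma-derived EVs of the same rats were read for the same sources, as shares of annotated mRNA counts, with no test. The hemoglobin list, of which 12 of 14 genes were in the table and Hba1 was the most abundant, took 6.81, 10.3 and 17.4% in control and 28.5, 22.0 and 22.0% in hNSCs libraries. No count in the 6 libraries was found for 3 of its genes. Control replicate 3 was the highest control library, as it was for erythroid miRNAs, and all hNSCs libraries were higher than all control libraries. The 6 red cell genes other than hemoglobin, led by Alas2, took 0.167, 0.265 and 0.401% in control and 0.828, 0.629 and 0.634% in hNSCs libraries. All 5 liver genes listed, led by Alb, had counts and took 3.23, 2.20 and 0.285% in control and 0.132, 0.113 and 0.684% in hNSCs libraries. Control replicates 1 and 2 were the highest and control replicate 3 was within the hNSCs range. The 7 platelet genes, led by Pf4, took 0.157, 0.202 and 0.112% in control and 0.0803, 0.122 and 1.04% in hNSCs libraries, with the highest value in hNSCs replicate 3. The 5 T cell genes, led by Lck, took 0.00836, 0.0132 and 0.0413% in control and 0.0299, 0.0170 and 0.0190% in hNSCs libraries, highest in control replicate 3. The 5 neutrophil genes, led by S100a9 and with 1 gene at 0 in the 6 libraries, took 0.0112, 0.00362 and 0.0269% in control and 0.0130, 0.0327 and 0.0150% in hNSCs libraries. The part of these sources in the miRNA differences was not tested.

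**Figure D2:**
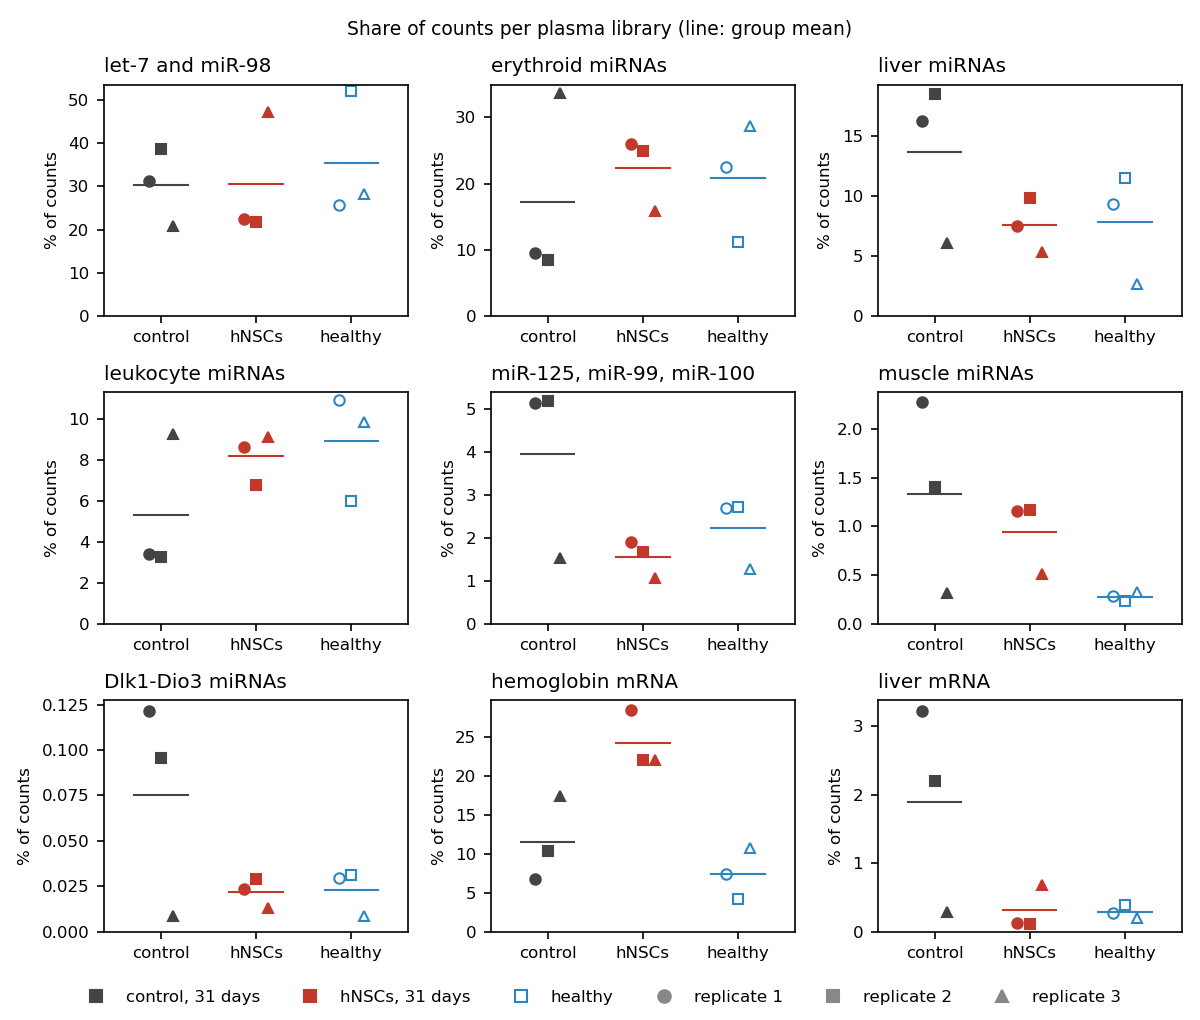
Share of counts, in percent of known miRNA counts or of annotated mRNA counts, taken by 9 lists of marker miRNAs or mRNAs in each plasma library of control and hNSCs rats at 31 days and of healthy rats, with 1 point per library, marker shapes for the replicates and a line at the group mean. In the panel of erythroid miRNAs control replicate 3, the dark triangle, is at 33.7% and control replicates 1 and 2 are at 9.46 and 8.50%.

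The let-7 family, conserved regulators of differentiation, was the most abundant seed family by its mean over the 6 libraries and set hNSCs replicate 3 apart. With counts summed by seed, the miR-16 family was above it in control replicate 3 (341090 against 226797 CPM). The same held in hNSCs replicates 1 (217427 against 202425 CPM) and 2 (223242 against 203619 CPM). let-7 miRNAs and miR-98 took 31.2, 38.7 and 20.8% of known miRNA counts in control, 22.4, 21.7 and 47.3% in hNSCs and 25.7, 52.1 and 28.3% in healthy libraries. Of 9 members 7 had positive fold changes, with a median log2 of 0.32, which was -0.49 without hNSCs replicate 3 and ranged over the alternatives from -0.33 with predicted miRNAs kept to 0.41 with upper quartile scaling. let-7a-5p was at 86203, 116186 and 61419 CPM in control and 62112, 52391 and 192199 CPM in hNSCs libraries (log2 fold change 0.22 ± 0.52 SE, left-out range -0.63 to 0.55, 95% confidence interval -0.87 to 1.31, -0.49 with predicted miRNAs kept). hNSCs replicate 3 was the highest of the 6, and without it the log2 fold change was -0.63, while without control replicate 3 it was -0.0098. let-7i-5p, which had the lowest p of the list, was at 13299, 19613 and 18209.9 CPM in control and 16662, 17816 and 61249 CPM in hNSCs libraries (log2 fold change 0.91 ± 0.52 SE, -0.0025 without hNSCs replicate 3, edgeR adjusted p = 0.523). let-7f-5p (0.49 ± 0.52 SE, left-out range -0.49 to 0.83, -0.19 with predicted miRNAs kept), let-7e-5p (0.29 ± 0.55 SE, left-out range -0.66 to 0.62, -0.45), let-7g-5p (0.38 ± 0.30 SE, left-out range 0.067 to 0.67, -0.032) and let-7b-5p (-0.36 ± 0.53 SE, left-out range -0.86 to 0.061) had 95% confidence intervals that included 0. let-7c-5p had 70916, 96498 and 42417 CPM in control and 44807, 37829 and 116073 CPM in hNSCs libraries (log2 fold change -0.079 ± 0.53 SE, left-out range -0.77 to 0.31, 0.019 with upper quartile scaling). Members of the family share the seed GAGGUAG and differ by few bases, so that reads could be divided among them in the counting.
let-7a-5p: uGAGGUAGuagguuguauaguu
let-7b-5p: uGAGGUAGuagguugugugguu
let-7c-5p: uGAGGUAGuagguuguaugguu
let-7e-5p: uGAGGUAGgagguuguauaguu
let-7f-5p: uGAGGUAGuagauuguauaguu
let-7i-5p: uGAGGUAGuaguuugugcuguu
Relative to let-7a-5p, let-7c-5p has A19G, let-7e-5p has U9G and let-7f-5p has G12A, with positions counted from 1 at the 5′ end of let-7a-5p.

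The lists of muscle, brain, endothelial and epithelial miRNAs had negative medians with members in both directions, and the medians were close to 0 or turned positive when single libraries were left out. With 1 library left out, the median of striated muscle miRNAs ranged from -0.78 without control replicate 3 to -0.031 without control replicate 1, and over the alternatives it ranged from -1.25 with predicted miRNAs kept to -0.023 with limma on log2(TPM + 0.1), where a replicate block gave -0.034. That of brain miRNAs ranged from -0.38 without hNSCs replicate 3 to 0.040 without control replicate 1, and from -0.90 with predicted miRNAs kept to -0.13 with upper quartile scaling. Endothelial miRNAs had medians from -0.29 without control replicate 3 to 0.038 without hNSCs replicate 3, and from -0.82 with predicted miRNAs kept to -0.041 with upper quartile scaling. Epithelial miRNAs had medians from -0.73 without control replicate 3 to 0.14 without control replicate 2, and from -1.05 with predicted miRNAs kept to -0.13 with a replicate block. Of 8 striated muscle miRNAs tested 6 were negative, with a median log2 of -0.36, and the list took 2.28, 1.40 and 0.311% of known miRNA counts in control, 1.16, 1.17 and 0.516% in hNSCs and 0.284, 0.233 and 0.322% in healthy libraries. miR-133a-3p, a miRNA of skeletal and heart muscle, was at 2769, 2300.2 and 236 CPM in control and 647, 419.6 and 360.1 CPM in hNSCs libraries, with control replicate 3 the lowest of the 6 (log2 fold change -1.90 ± 0.76 SE, edgeR unadjusted p = 0.0221, adjusted p = 0.387). miR-133b-3p (-1.11 ± 0.63 SE, left-out range -1.64 to -0.69), miR-1-3p (-0.29 ± 0.63 SE, left-out range -0.79 to 0.30) and miR-1b (-0.29 ± 0.63 SE, left-out range -0.78 to 0.30) were the other examples. The 2 positive members, named after their values were seen, were miR-208a-3p (0.71 ± 0.54 SE, without overlap of the groups) and miR-208b-3p (0.18 ± 0.88 SE). Of 22 brain miRNAs 15 were tested, 7 positive and 8 negative, with a median log2 of -0.15. A fit to the 6 libraries alone tested only 10 of these 15, whose median was 0.22, or 0.35 with a replicate block, so that the members differ and the medians are not those of the 15. They took 0.367, 0.333 and 0.298% of known miRNA counts in control and 0.331, 0.272 and 0.899% in hNSCs libraries, and the neuronal miR-124-3p had 1 count in the 6 libraries, in hNSCs replicate 1. miR-128-3p, the most abundant of the brain list, was at 2525, 2666 and 2124 CPM in control and 2019, 1749.9 and 11563 CPM in hNSCs libraries (log2 fold change 1.07 ± 0.71 SE, edgeR adjusted p = 0.567). hNSCs replicate 3 was far above the other libraries, and the log2 fold change was -0.38 without that library. miR-7a-5p had 210.1, 147 and 730.4 CPM in control and 815, 357 and 433 CPM in hNSCs libraries (log2 fold change 0.56 ± 0.66 SE, 0.15 without control replicate 2 to 1.53 without control replicate 3). Of 8 endothelial miRNAs 4 were positive and 4 negative, with a median log2 of -0.16, and the list took 4.98, 3.59 and 6.75% in control and 7.30, 7.28 and 2.76% in hNSCs libraries, among them miR-126a-5p (0.42 ± 0.69 SE, left-out range 0.041 to 1.02). At an unadjusted p under 0.05, 1 endothelial member was higher, miR-34a-5p, and 2 lower, miR-10a-5p and miR-10b-5p, against 13 and 22 of 309. Of 8 epithelial miRNAs 4 were positive and 4 negative, with a median of -0.31, and the list took 0.599, 0.610 and 0.201% in control and 0.393, 0.410 and 0.231% in hNSCs libraries. Its examples were miR-200a-3p (-0.89 ± 0.64 SE, left-out range -1.39 to -0.45), miR-205 (0.52 ± 0.42 SE, left-out range 0.24 to 0.83) and miR-141-3p (0.019 ± 0.40 SE, left-out range -0.33 to 0.28, negative with library size only, DESeq2, a minimum mean TPM of 5, the erythroid list left out or predicted miRNAs kept, down to -0.70).

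The miR-17-92 cluster, which promotes proliferation, had 10 of 11 members positive with its paralogs, with a median log2 of 0.39 that ranged from 0.051 without control replicate 2 to 1.23 without control replicate 3 with 1 library left out and was 0.18 without control replicate 1. Across alternatives it was from 0.16 with predicted miRNAs kept to 0.61 with a replicate block. Its members took 1.02, 1.04 and 3.07% of known miRNA counts in control and 2.46, 1.90 and 1.76% in hNSCs libraries. miR-20a-5p was at 427, 297 and 1279.6 CPM in control and 1163, 869.8 and 1743 CPM in hNSCs libraries (log2 fold change 0.91 ± 0.51 SE, 0.56 without control replicate 2 to 1.76 without control replicate 3, edgeR adjusted p = 0.518), with control replicates 1 and 2 the lowest. miR-17-5p (1.06 ± 0.60 SE, 0.033 without hNSCs replicate 3), miR-93-5p (0.35 ± 0.55 SE, left-out range -0.012 to 1.21) and miR-92a-3p were further examples. Of 5 miR-30 members 4 were negative, with a median of -0.51 (-0.77 without control replicate 3, and -1.23 with predicted miRNAs kept to -0.39 with upper quartile scaling). At an unadjusted p under 0.05 was 1 of the 5, against 22 of 309 lower over all tested, miR-30c-5p, at 1188, 1027 and 672 CPM in control and 781, 533 and 535 CPM in hNSCs libraries (log2 fold change -0.64 ± 0.31 SE, edgeR adjusted p = 0.434). miR-30d-5p (-0.51 ± 0.29 SE, left-out range -0.77 to -0.36) and miR-30a-5p (-0.31 ± 0.28 SE, left-out range -0.48 to -0.22) were more abundant, and the list took 7.73, 6 and 5.16% in control and 6.12, 6.12 and 3.07% in hNSCs libraries. Of 3 miR-29 members 2 were negative, with a median of -0.22 that turned to 0.0067 without hNSCs replicate 3 and ranged over the alternatives from -0.92 with predicted miRNAs kept to -0.089 with upper quartile scaling. The 2 were miR-29c-3p (-0.22 ± 0.34 SE, left-out range -0.38 to 0.0067) and miR-29a-3p (-0.23 ± 0.34 SE, left-out range -0.39 to -0.0030). The third, miR-29b-3p, was positive (0.41 ± 0.27 SE, left-out range 0.21 to 0.61, -0.17 with predicted miRNAs kept). Of 5 miR-23, miR-27 and miR-24 members 4 were negative, with a median of -0.11, which was 0.0013 without control replicate 2 and from -0.74 with predicted miRNAs kept to 0.0041 with upper quartile scaling. Examples were miR-27b-3p (-0.14 ± 0.29 SE, left-out range -0.38 to 0.0013), miR-27a-3p (-0.13 ± 0.29 SE, left-out range -0.37 to 0.0049), miR-23b-3p (-0.11 ± 0.23 SE, left-out range -0.22 to -0.046) and miR-24-3p (0.30 ± 0.24 SE, left-out range 0.15 to 0.45, -0.31 with predicted miRNAs kept). With upper quartile scaling the signs of miR-27b-3p, miR-27a-3p and miR-23b-3p turned to 0.00086, 0.0041 and 0.0011. The study's text names miR-125b-5p, miR-9-5p, miR-16-5p and let-7 members as enriched in hNSCs EVs, without saying which let-7 members. The list here held 8 miRNAs, with let-7a-5p, let-7b-5p, let-7c-5p, let-7f-5p and let-7i-5p for that family. Of these 5 were positive, with a median of 0.15, which was from -0.65 with predicted miRNAs kept to 0.27 with upper quartile scaling, -0.16 without control replicate 3 and -0.56 without hNSCs replicate 3. Of these 8, miR-125b-5p was lower at an unadjusted p under 0.05. Of 21 tested miRNAs the study names for plasma and brain EVs 13 were positive, with a median of 0.34 (-0.10 with predicted miRNAs kept to 0.43 with upper quartile scaling, 0.033 without hNSCs replicate 3). At an unadjusted p under 0.05, 1 of them was higher, miR-34a-5p, and 1 lower, miR-204-5p. The latter list was named by the study on these samples and is not independent evidence of a direction.

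Summing the counts of miRNAs with the same seed gave 237 families with enough counts to test, and edgeR called 0 of them (0%), with 10 higher and 17 lower at an unadjusted p under 0.05. The families of lowest p were AAUGCCC, held by miR-365-3p (log2 fold change -1.78 ± 0.48 SE), ACCCGUA of miR-99 and miR-100 (-1.45 ± 0.49 SE) and CCCUGAG of miR-125 (-1.21 ± 0.44 SE) on the lower side (edgeR, lowest adjusted p = 0.272). On the higher side they were UGAAAGG of miR-488-3p (2.59 ± 0.78 SE, 1.36 without hNSCs replicate 3 to 2.93 without hNSCs replicate 1), CCCGUCC of miR-1247-5p and ACUCCUC of miR-483-3p (2.51 ± 0.99 SE). The most abundant families by mean over the 6 libraries were GAGGUAG of let-7 (0.31 ± 0.53 SE, -0.54 without hNSCs replicate 3 to 0.50 without control replicate 2) and AGCAGCA of miR-16 (0.40 ± 0.55 SE, -0.088 without control replicate 1 to 1.43 without control replicate 3). Next came GGAGUGU of miR-122-5p (-0.96 ± 0.70 SE, -1.40 without control replicate 3 to -0.63 without control replicate 2), GUAAACA of miR-30 (-0.24 ± 0.28 SE, -0.43 without hNSCs replicate 2 to -0.13 without hNSCs replicate 3) and UCAAGUA of miR-26 (0.049 ± 0.31 SE, -0.15 without hNSCs replicate 3 to 0.057 without hNSCs replicate 2, -0.093 with library size only). The ranges are those with 1 library left out, by which the first, second and last of these 5 families turned sign. Without control replicate 3, 10 of 248 families were called, or 9 of the same 237, and without any other library 0 were.

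The effect of hNSCs at 31 days was set against those at 4 and 10 days, which share no libraries with it, by tests of the difference between the fold changes. Against 4 days edgeR called 0 of 309 miRNAs (0%), with 5 higher and 2 lower at an unadjusted p under 0.05 and a lowest adjusted p of 0.994. The 3 lowest p values included those of miR-27a-5p, with log2 fold changes of 0.58 at 31 days (0.29 without control replicate 1 to 0.97 without control replicate 3) and -1.85 at 4 days, and miR-1249 (1.52 and -1.63, with a value at 31 days of 0.43 without hNSCs replicate 1 to 2.03 without hNSCs replicate 3). The third was miR-1247-5p. Against 10 days edgeR had 22 miRNAs with a higher and 55 with a lower effect at 31 days at an unadjusted p under 0.05. The effect at 10 days itself had a median log2 fold change of 0.24, with 193 of 309 positive. In hNSCs replicate 3 at 10 days the miR-125, miR-99 and miR-100 list took 5.77% of known miRNA counts, against 1.61 and 2.50% in replicates 1 and 2. By adjusted p edgeR called 12 of 309 (3.88%), 1 with a higher and 11 with a lower effect at 31 days. These were miR-365-3p, miR-133a-3p, miR-145-5p, miR-133b-3p, miR-206-3p, miR-10b-5p, miR-10a-5p, miR-129-5p, miR-99a-5p, miR-100-5p and miR-434-3p, and miR-488-3p with the higher effect. miR-365-3p was at 25.1, 64.8 and 25.1 CPM in control and 81.7, 85.8 and 157 CPM in hNSCs libraries at 10 days, so that its direction was opposite, with log2 fold changes of -1.85 at 31 days and 1.5 at 10 days, a difference of -3.35 ± 0.73 SE (edgeR, adjusted p = 0.0426). miR-133a-3p had 142, 382 and 148 CPM in control and 249, 1505 and 2933 CPM in hNSCs libraries at 10 days, higher in hNSCs replicates 2 and 3 (log2 fold changes of -1.90 at 31 days and 2.80 at 10 days). miR-488-3p had 53.1, 22.5 and 72.6 CPM in control and 15.2, 2.52 and 22.5 CPM in hNSCs libraries at 10 days, all hNSCs values being below the control values, although hNSCs replicate 3 and control replicate 2 were nearly equal (log2 fold changes of 2.50 at 31 days and -1.85 at 10 days). The count of 12 was 0 with library size only, and with 1 library of the 31 day groups left out it was 60 without control replicate 3 (64 with the same 309 miRNAs), 1 without hNSCs replicate 1 and 0 without each of the other 4. No library of the 10 day groups was left out.

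**Figure D3:**
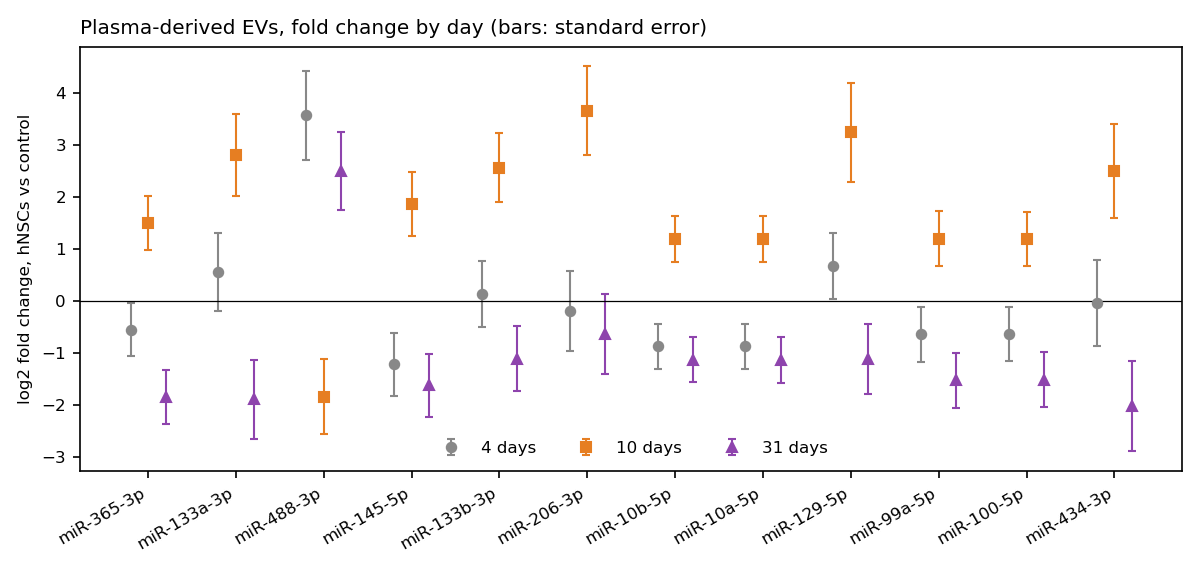
log2 fold change of hNSCs against control in plasma-derived EVs at 4, 10 and 31 days for the 12 miRNAs whose effect differed between 10 and 31 days, with bars for the standard error. In 11 miRNAs the value at 31 days lies below that at 10 days, and in miR-488-3p it lies above.

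Brain-derived EVs of the 31 day groups were set against plasma in 1 edgeR model with a mean for each group and no term for the rat that gave both samples. It called a differing effect of hNSCs for 4 of 409 miRNAs (0.978%), miR-323-3p, miR-376b-5p, miR-376c-5p and miR-874-5p, none of which was among the 309 with enough counts to test in plasma, so that they entered through their levels in the brain. Among the 309, edgeR called 0, with 8 higher and 21 lower in plasma at an unadjusted p under 0.05 and a lowest adjusted p of 0.412. With the brain and plasma libraries of the same number in a group taken as 1 rat, edgeR called 0 of 409, with 3 higher and 18 lower in plasma at an unadjusted p under 0.05 and a lowest adjusted p of 0.0834, and 0 of the 309, with 4 higher and 11 lower in plasma at an unadjusted p under 0.05 and a lowest adjusted p of 0.689. These 3 fits were chosen after seeing the data. The 4 calls are therefore given by their counts only and support no difference between tissues. miR-323-3p, a member of the Dlk1-Dio3 cluster, had 10, 13 and 1 counts in the control and 0 in each hNSCs plasma library, with nearly all counts in control replicates 1 and 2. In the brain it was at 364, 334 and 376 CPM in control and 385, 299 and 519 CPM in hNSCs libraries, overlapping between the groups. miR-376b-5p and miR-376c-5p, encoded in the same genomic cluster although not among the 41 listed, had equal counts of 11, 4 and 4 in control and 0 in hNSCs plasma libraries, and are not separate observations. miR-874-5p had 8, 3 and 3 counts in control and 0 in hNSCs plasma libraries. Control replicate 1, the deepest library, held the most counts of the miR-376 members and of miR-874-5p. Over all known miRNAs of the count file, 7 had counts in every control library and in no hNSCs library, and 0 had the reverse, while the control libraries summed to 4066392 known counts and the hNSCs libraries to 2891587. The count of 4 was 3 with library size only, 17 without control replicate 3, 1 without control replicate 1, 4 without control replicate 2 and 3 without each hNSCs library. The sequences are printed for the shared seed of the miR-376 members.
miR-323-3p: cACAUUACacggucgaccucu
miR-376b-5p: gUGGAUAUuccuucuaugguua
miR-376c-5p: gUGGAUAUuccuucuauguuu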

How the data were processed

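EVs were isolated from plasma by size exclusion chromatography, and miRNA libraries carried unique molecular identifiers. The labels name serum in the extraction text and plasma elsewhere. The authors removed reads of other RNAs and repeats, matched the rest to miRBase and deposited UMI count values per miRNA, known and predicted, and counts per mRNA, on Rnor_6.0. The deposited TPM values were computed by the authors by dividing each UMI count by the sum over its library, with no use of miRNA length. Versions of the counting tools are not stated.

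Groups were taken from the labels. The 699 known miRNAs were filtered with filterByExpr and scaled by TMM, and 309 were fitted in 1 edgeR 4.0.16 quasi-likelihood model of the 7 plasma groups in 21 libraries, with Benjamini-Hochberg adjustment. SE is the size of the log2 fold change divided by the square root of F. Counts summed by seed, and differences between days or tissues (the latter in 42 libraries, without a term for the rat), were fitted alike. Fits with a rat term, pairing brain and plasma libraries by their number, or with the plasma filter, and one without control replicate 3 on the same 309 miRNAs, were added after seeing the data. DESeq2 1.42.0, limma 3.58.1, other scalings and filters, a replicate block and leaving out each library were tried. The methods were tested on simulated data. R 4.3.3 and Python 3.11.15 were used.

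Named miRNAs were the 10 of lowest p in each direction, the 10 most abundant, any called, list examples that were most abundant or of lowest p, the 3 of lowest p in each test of a difference, and the members of the most abundant or lowest-p seed families. The remaining miRNAs of the 12 and of the 4 with differing effects were named after their values were seen. The members and lists were chosen with earlier results of these data known. The search for near-identical miRNAs was widened to shifted starts after its values were seen. FPKM values, sequences of unannotated transcripts and 21 brain mRNA columns were not used here.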

Additional observations from a re-analysis of the deposited data

Results flagged for a closer look

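The effect of hNSCs on plasma-derived EVs differed between 31 and 10 days by the test of the difference itself in 12 miRNAs. The difference of log2 fold changes, 31 days minus 10 days, was -3.35 for miR-365-3p, -4.70 for miR-133a-3p, 4.35 for miR-488-3p, -3.49 for miR-145-5p, -3.68 for miR-133b-3p, -4.30 for miR-206-3p, -2.33 for miR-10b-5p, -2.33 for miR-10a-5p, -4.37 for miR-129-5p, -2.73 for miR-99a-5p, -2.71 for miR-100-5p and -4.54 for miR-434-3p. The edgeR adjusted p was 0.0426 for miR-365-3p, miR-133a-3p, miR-488-3p, miR-145-5p and miR-133b-3p and 0.0460 for the others. The values of miR-10a-5p and miR-10b-5p, like those of miR-99a-5p and miR-100-5p, come from nearly the same counts. The count of 12 was 0 with library size only, and it depended on single libraries, being 60 without control replicate 3 and 0 or 1 without any other library of the 31 day groups. Leaving out libraries of the 10 day groups was not tried. In hNSCs replicate 3 at 10 days the Dlk1-Dio3 list took 0.136% of known miRNA counts, against 0.0120 and 0.0347% in replicates 1 and 2.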

How the results depend on the processing

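Of 69 named miRNAs, 829 of 889 values under alternatives that kept all libraries had the same direction and side of the threshold, 27 passed the threshold, at an unadjusted p or in DESeq2, and 33 reversed. The 889 include the unadjusted p and the lack of a fold limit, which reuse the main fit, so that no value could reverse there. Without a fold limit no call could change either, as the lowest adjusted p was 0.369. The share of 829 is therefore higher than separate fits alone would give. Of 414 values with 1 library left out, 376 were the same, 9 gained a call and 29 reversed. By miRNA, 19 turned sign and 31 kept it but moved by over 1.5 times when some library was left out.

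The miRNAs called higher were 0 in edgeR, 13 at an unadjusted p and 0 to 2 with 1 library left out. Those called lower were 0 in edgeR, 1 in DESeq2, 22 at an unadjusted p and 0 to 11 with 1 library left out. In edgeR without control replicate 3 but on the same 309 miRNAs, an alternative chosen after seeing the data, 0 were called higher and 1 lower, 9 families were called and 64 miRNAs differed between 31 and 10 days. Seed families called were 0, and 0 to 10 with 1 library left out. miRNAs whose effect differed between 31 and 10 days were 12, then 0 with library size only and 0 to 60 with 1 library left out, and those that differed between plasma and brain were 4, then 1 to 17 with 1 library left out and 0 in edgeR with the plasma filter, with a rat block or with both, 3 alternatives chosen after seeing the data. Differences between 31 and 4 days stayed at 0 under all alternatives run. Each of the highest counts with 1 library left out, 2, 11, 10, 60 and 17, was that without control replicate 3.

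With limma on log2(TPM + 1) the log2 fold change reversed to -0.048 for let-7a-5p and -0.016 for let-7e-5p. With limma on log2(TPM + 0.1) the log2 fold change reversed to -0.048 for let-7a-5p and -0.016 for let-7e-5p. With a replicate block the log2 fold change reversed to -0.050 for let-7a-5p, -0.034 for let-7e-5p, 0.00071 for miR-1-3p and 0.0037 for miR-1b. With predicted miRNAs kept the log2 fold change reversed to -0.49 for let-7a-5p, -0.19 for let-7f-5p, -0.45 for let-7e-5p, -0.44 for miR-148a-3p, -0.15 for miR-150-5p, -0.42 for miR-143-3p, -0.70 for miR-141-3p, -0.032 for let-7g-5p, -0.17 for miR-29b-3p, -0.31 for miR-24-3p and -0.062 for miR-34a-5p. With upper quartile scaling the log2 fold change reversed to 0.019 for let-7c-5p, 0.098 for miR-199a-3p, 0.00086 for miR-27b-3p, 0.0041 for miR-27a-3p and 0.0011 for miR-23b-3p. With DESeq2 the log2 fold change reversed to -0.091 for miR-150-5p and -0.046 for miR-141-3p. With no filter the log2 fold change reversed to -0.040 for miR-150-5p. With a mean TPM over 5 the log2 fold change reversed to -0.13 for miR-150-5p and -0.086 for miR-141-3p. With the 6 libraries only the log2 fold change reversed to -0.041 for miR-150-5p. With the erythroid list left out the log2 fold change reversed to -0.15 for miR-150-5p and -0.084 for miR-141-3p. With library size only the log2 fold change reversed to -0.0094 for miR-141-3p.

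With 1 library left out, the log2 fold change crossed 0 for these miRNAs, with their lowest and highest values. It ranged for let-7a-5p from -0.63 to 0.55, let-7f-5p from -0.49 to 0.83, let-7c-5p from -0.77 to 0.31 and let-7b-5p from -0.86 to 0.061. The range was, for let-7e-5p from -0.66 to 0.62, miR-92a-3p from -0.16 to 1.02, miR-148a-3p from -0.24 to 0.69 and miR-1-3p from -0.79 to 0.30. It ranged for miR-1b from -0.78 to 0.30, miR-128-3p from -0.38 to 1.5, miR-150-5p from -0.37 to 0.91 and miR-143-3p from -0.30 to 0.53. The range was, for miR-199a-3p from -0.51 to 0.32, miR-141-3p from -0.33 to 0.28, let-7i-5p from -0.0025 to 1.25 and miR-93-5p from -0.012 to 1.21. It ranged for miR-29c-3p from -0.38 to 0.0067, miR-27b-3p from -0.38 to 0.0013 and miR-27a-3p from -0.37 to 0.0049.

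List medians turned sign with 1 library left out for let-7 (-0.49 without hNSCs replicate 3), brain (0.040 without control replicate 1 and 0.0045 without hNSCs replicate 2), endothelial (0.038 without hNSCs replicate 3), epithelial (0.14 without control replicate 2), miR-29 (0.0067 without hNSCs replicate 3), miR-23, miR-27 and miR-24 (0.0013 without control replicate 2) and hNSCs EV miRNAs (-0.16 without control replicate 3 and -0.56 without hNSCs replicate 3), and kept it for the other 11 lists. Of the most abundant seed families, let-7 ranged from -0.54 to 0.50, miR-16 from -0.088 to 1.43 and miR-26 from -0.15 to 0.057.

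The median over all known miRNAs tested moved from 0.014 to -0.56 with predicted miRNAs kept, 0.11 with upper quartile scaling, -0.12 with a mean TPM over 5 and -0.12 with the erythroid list left out. The cause was not tested. The replicate block treats control and hNSCs libraries of the same number as a pair, although they are different rats, and their deviations from the group means correlated across miRNAs, which are not independent replicates, at r = -0.043, -0.071 and 0.055 for numbers 1, 2 and 3. A day group left with 2 libraries kept the spread shared by all groups. Values of scarce miRNAs such as miR-1247-5p rest on few counts.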
